A study of Gallus gallus with 8 samples.

Results

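Oocyte samples of hens from the DPF lines were compared with oocyte samples of hens from the HG line on Affymetrix chicken arrays. The arrays were chosen by their titles, the 4 titled DPF+ or DPF- against the 4 titled HG+ or HG-, which together are all 8 arrays of the study. Per the labels, DPF+ and DPF- are a pair of lines selected in opposite directions, with unlike fertility. HG+ and HG- come from only 1 line, within which fertile and less fertile hens were told apart. The study itself set DPF+ against DPF- and HG+ against HG-, so the comparison of sources asks something the labels do not name as an aim. Each of the 4 groups has 2 arrays, which the labels call biological replicates without saying whether they came from separate birds or pools, so p-values measure only the spread between these samples. Light was on for 14 h and off for 10 h each day for the hens of every group, housed at 20 °C, and the samples, of the follicle stage named F1, were taken 24 h before ovulation. Besides the fertility level, no treatment, allele or age is given for any group, and the meaning of the letters DPF and HG is not given.

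The F1 follicle is the largest follicle of the hen ovary and the next to ovulate. Its yolk-filled oocyte is surrounded by an egg coat, a single layer of granulosa cells that produces progesterone, a basement membrane, and an outer theca with fibroblasts, vessels and blood cells. RNA of the oocyte is stored for the early embryo, whereas RNA of the granulosa cells serves hormone production and the egg coat.

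Every value is a log2 level per probe set, a group of array probes for a stretch of one transcript, and a change is the mean of the DPF arrays minus the mean of the HG arrays on that scale. Probe sets at 4 or more on at least 2 arrays were tested, 12725 in all. Within each source the + arrays are listed before the - arrays, replicate 1 before replicate 2. Where the mean of a source lies under 4, its level is read as no more than background, so 4 takes its place in the change, which is then a bound and is written with "or more" or "or lower". The SE, the limma p and the call beside such a bound belong to the change as measured, without the floor. A call beside a bound thus rests in part on values read as background. Genes with several probe sets are given by the brightest of them unless stated. The granulosa transcription factor FOXL2 averaged 11.05 in DPF and 11.02 in HG samples, and HSD3B1, a steroid dehydrogenase of granulosa cells, averaged 12.11 and 12.15 in DPF and HG samples. The germ cell RNA-binding protein DAZL averaged 7.35 in DPF and 7.42 in HG samples. The RNA was thus not that of the oocyte alone, and in such bulk samples fewer cells of a type and less RNA per cell cannot be told apart.

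The 4 DPF arrays differed among themselves about as much as they differed from the HG arrays. Correlations over the tested probe sets ran from 0.927 to 0.977 among DPF arrays, from 0.92 to 0.969 between DPF and HG arrays, and from 0.988 to 0.993 among HG arrays. DPF+ replicate 2 stood apart from the other arrays on the second principal component. Control transcripts carry probe sets at both ends, and their 3′ level minus their 5′ level is larger where RNA is broken or copied incompletely. That difference, averaged over actin, EF1a and GAPDH, was 1.82, 1.86, 1.54 and 1.33 on the DPF arrays and 1.15, 1.17, 1.10 and 1.04 on the HG arrays, with no overlap (1.64 ± 0.246 in DPF and 1.12 ± 0.0586 in HG, SD, n = 4 each; p = 0.0286 by an exact permutation test, two-sided, which is the lowest value the 70 splits allow). Between 11433 and 11700 probe sets reached 4 on DPF arrays, against 11906 to 12092 on HG arrays (exact p = 0.0286). Source and this measure of RNA quality cannot be told apart by design, since every DPF array lies above every HG array.

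**Figure D1:**
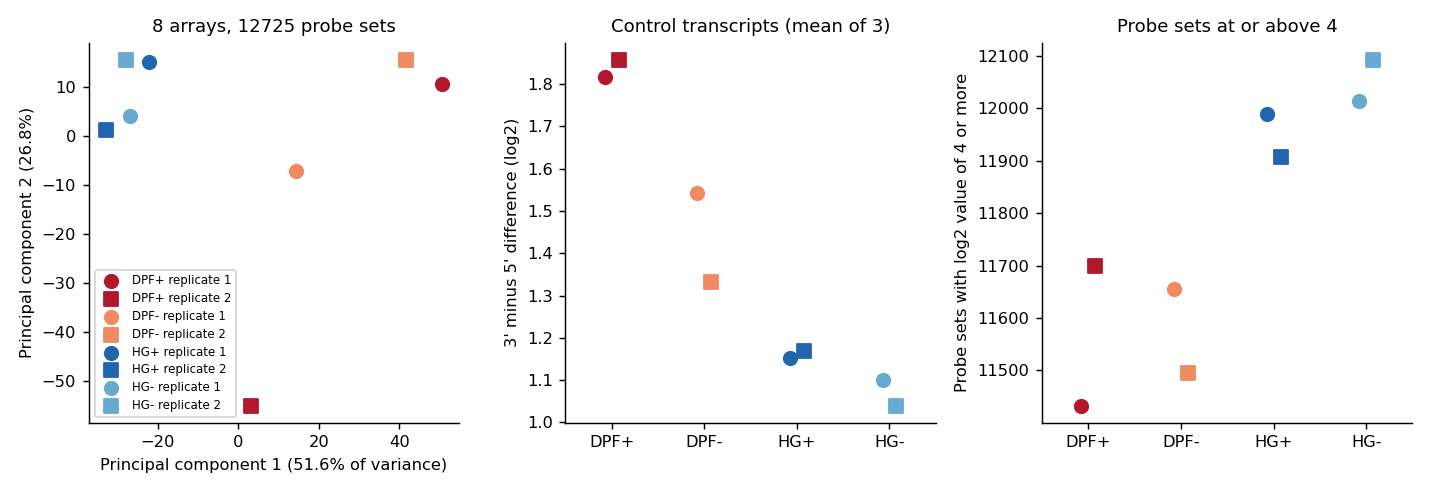
The 8 arrays on the first 2 principal components of the tested probe sets (left), their mean 3′ minus 5′ difference of control transcripts on the log2 scale (middle), and their number of probe sets at a log2 level of 4 or more (right). Colours mark the 4 groups and shapes the replicate; the DPF arrays are spread widely on the left, lie between 1.33 and 1.86 in the middle against 1.04 to 1.17 for HG, and hold fewer probe sets at 4 on the right.

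The selenium carrier SELENOP1, the kinase subunit PIK3R1 and the splicing regulator RBFOX2 were among the genes higher in DPF samples, and the collagen gene COL1A2, the basement membrane gene NID1 and the fatty acid carrier FABP3 were among those lower. In limma, with Benjamini-Hochberg adjustment and a 5% threshold, 1588 of the 12725 probe sets (12.5%) differed, 443 higher in DPF (3.48%) and 1145 lower (9%). The median change was 0.91 among the higher calls and -0.89 among the lower calls, and 22 probe sets each way changed by 2 or more. The DPF and HG arrays did not overlap on 399 of the higher and 1085 of the lower calls, against 24.8% of all tested probe sets not overlapping (8.3% with DPF higher, 16.5% with DPF lower). Of the higher calls, 100 had only the HG mean under 4, and of the lower calls 363 had only the DPF mean under 4. Quantile normalization moved the share of higher calls to 39.6%, against 27.9% in the values as deposited.

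A fit without 1 array leaves only 1 array in its group, and that group then adds nothing to the estimate of spread. A call gained or lost in such a fit, here and below, can come from that estimate as well as from the change. The counts of calls between the sources moved with single arrays and with the RNA quality measure. They were 2624 without DPF+ replicate 1, 4846 without DPF+ replicate 2, 1019 without DPF- replicate 1 and 518 without DPF- replicate 2. They were 346 and 250 without HG+ replicate 1 or 2, and 311 and 174 without HG- replicate 1 or 2. In all 8 of these fits 163 probe sets stayed called (1.28%), 38 higher (0.299%) and 125 lower (0.982%). With the 3′ minus 5′ difference as a covariate of the 4 group means no probe set passed limma's 5%, while 1489 had an unadjusted p under 0.05; in that model the covariate is estimated only from the pairs of replicates and the median standard error of the source change was 0.831, against 0.185 without it. A model of the 2 sources alone with the same covariate, called the 2-source covariate model below, was added after that count of 0 had been seen. Its median standard error was 0.333, against 0.181 without the covariate, and 105 probe sets passed, of which 91 were among the 1588. The rule for naming genes gives 78 called genes, of which 14 passed in that model, 64 did not and 4 took the opposite sign. Those that passed were HHIPL1, GLIPR2, MYLIP, SORL1, YAE1D1, BF2, BG8, ZFP36L2, TAF4B, TES, MYO10L, CSRP2, COL1A2 and MME. The 2-source covariate model leaves out the fertility level. Its covariate was higher on the DPF+ arrays (1.82 and 1.86) than on the DPF- arrays (1.54 and 1.33). A difference between the DPF+ and DPF- lines can thus enter the change it gives. A call in that model therefore does not separate source from RNA quality. Below, the change in that model stands beside each called gene for which it turned the sign or moved by over 1.5 times. Of named genes not called, RFX3 moved from 0.105 to 2.66 there and SEMA5A from 0.275 to 0.89. CD74 moved from -0.755 to -0.049 and GNL3 from -0.075 to -0.495. DIEXF and CD81, also not called, turned the sign and are given with the processing results.

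**Figure D2:**
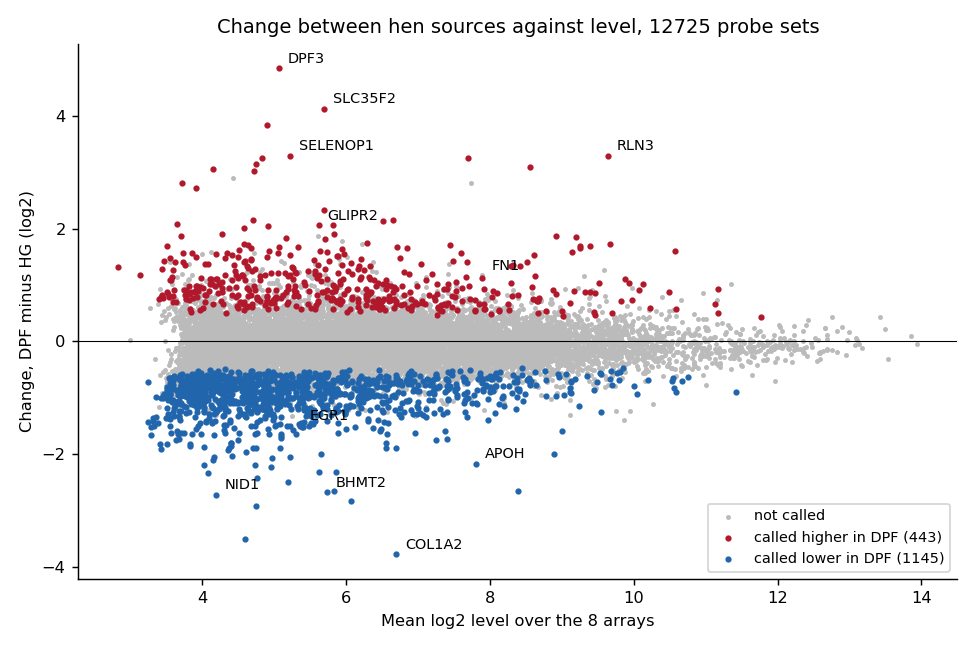
Change between sources (DPF minus HG, log2) against the mean log2 level over the 8 arrays, for the 12725 tested probe sets, as measured and without the floor of 4. Red points were called higher in DPF (443), blue points lower (1145), and grey points were not called; the labelled genes are among those described in the text, and for a gene with several probe sets the one with the most extreme change is labelled.

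Probe sets of the same gene often did not move together. Of 2617 genes with 2 or more tested probe sets, 759 had at least 1 call, and in 76 every probe set was called, 19 higher and 57 lower. The changes had both signs in 230 of the 759 genes, and 9 genes had calls in opposite directions. In a split chosen after seeing the data, 18.5% of the dimmer probe sets of these genes were called lower, against 4.36% of the brightest ones, while 2.75% and 3.4% were called higher. The median change was -0.24 for the dimmer and -0.025 for the brightest probe sets. The 3′ minus 5′ difference was higher on the DPF arrays, and its part in these shares was not tested.

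Genes named for calls on every probe set, or on their single one, had to be free of overlap between sources by the naming rule. Their separation, here and below, is thus not a further result. Among genes with every probe set higher in DPF samples, SELENOP1 had 4 of them. It encodes selenoprotein P, a secreted protein that carries selenium between tissues, and is listed elsewhere as SEPP1. The brightest probe set read 11.94, 10.83, 11.30 and 11.45 on the DPF arrays, against 9.56, 9.70, 9.84 and 9.98 on the HG arrays. Every DPF array was higher than every HG array, with a change of 1.61 (SE 0.23, limma adjusted p = 0.00838). The other 3 probe sets of SELENOP1 changed by 1.85 and 1.91, and by 2.86 or more where all HG arrays lay between 3.54 and 3.65. Without HG- replicate 2 the adjusted p of the brightest probe set was 0.0531, and at least 1 of the other probe sets was called in each of the 8 fits without 1 array.

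GLIPR2, a protein of the Golgi membrane, was called on all 3 of its probe sets. Its brightest probe set read 6.75, 6.77, 6.45 and 6.62 on the DPF arrays and 4.76, 4.78, 4.66 and 4.16 on the HG arrays, a change of 2.06 (SE 0.16, limma adjusted p = 0.00133). MANEA, a mannosidase that trims sugar chains in the Golgi, read 6.41, 6.07, 5.44 and 5.69 in DPF and 4.28, 4.20, 4.32 and 4.12 in HG samples, a change of 1.67 (SE 0.15, limma adjusted p = 0.00238). Both genes were separated fully between the sources, as the naming rule required. Both kept their call on this probe set whichever array was left out, with adjusted p up to 0.0158 for GLIPR2 and 0.0266 for MANEA. In the 2-source covariate model GLIPR2 changed by 1.73 (limma adjusted p = 0.0498) and MANEA by 1.01 (0.17).

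PIK3R1, the regulatory subunit of phosphoinositide 3-kinase, read 10.25, 9.78, 9.67 and 10.64 in DPF and 8.41, 7.83, 9.09 and 8.40 in HG samples. Its change was 1.65 (SE 0.28, limma adjusted p = 0.0127), and the second probe set changed by 1.59. HHIPL1, a relative of the hedgehog-binding protein HHIP, averaged 6.62 ± 0.54 in DPF and 4.80 ± 0.25 in HG samples (SD, n = 4 each), a change of 1.82 (limma adjusted p = 0.0103). Neither gene overlapped between the sources, and both lost the call without HG+ replicate 2 or HG- replicate 2 (adjusted p up to 0.0725 for PIK3R1 and 0.0666 for HHIPL1).

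A further 5 of the 19 genes with every probe set higher are those that follow. The zinc finger protein ZC3H11A, which acts in mRNA export, changed by 1.38 (limma adjusted p = 0.0424), and the chromatin regulator ANKRD11 by 1.22 (0.0259). The kelch protein KLHL32 changed by 1.398 or more (0.0441), since its HG mean was 3.96. The splicing factor SLU7 changed by 0.74 (0.0239) and PLPP3, a phosphatase of signalling lipids, by 0.81 (0.0147). PLPP3 had DPF arrays between 5.65 and 5.88, against HG arrays between 4.74 and 5.21. KLHL32, ANKRD11 and PLPP3 lost the call without DPF- replicate 2 or any 1 of the HG arrays (adjusted p up to 0.162, 0.119 and 0.0884). ZC3H11A lost it without either DPF- array, HG+ replicate 2 or either HG- array (up to 0.169), and SLU7 without either DPF- array or any 1 HG array (up to 0.122). The measured change of KLHL32, 1.44, was 2.75 in the 2-source covariate model (0.102).

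Genes measured by a single probe set have no second reading. RLN3, relaxin 3, a peptide hormone of the relaxin family, read 12.73, 10.06, 9.68 and 12.65 on the DPF arrays, against 7.94, 8.04, 7.91 and 8.08 on the HG arrays. The DPF arrays were all higher but spread widely, while the HG arrays lay close together, and the change was 3.29 (SE 0.73, limma adjusted p = 0.0289). Within the DPF arrays, the high pair was DPF+ replicate 1 with DPF- replicate 2, and the low pair held 1 array of each line as well. RLN3 lost the call without DPF- replicate 2 or any 1 HG array (adjusted p up to 0.111), with changes from 2.54 to 4.03.

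RBFOX2, an RNA-binding regulator of splicing, read 6.40, 6.94, 7.37 and 6.68 in DPF and 4.98, 4.98, 4.57 and 4.64 in HG samples. It was separated fully, with a change of 2.06 (SE 0.20, limma adjusted p = 0.00287), and kept its call in every fit without 1 array (up to 0.028). ELOVL7, an elongase of long fatty acids, averaged 8.39 ± 0.45 in DPF and 6.82 ± 0.11 in HG samples (SD, n = 4 each), a change of 1.57 (limma adjusted p = 0.00862). MYLIP, a ubiquitin ligase that acts on receptors of the LDL receptor family, averaged 9.38 ± 0.39 in DPF and 7.85 ± 0.17 in HG samples, a change of 1.52 (0.00802). SORL1, a sorting receptor of that family, changed by 1.49 or more (0.0162), and FMOD, a proteoglycan that binds collagen, by 1.47 (0.0177). ELOVL7 and MYLIP lost the call only without HG- replicate 2 (0.0589 and 0.0557). SORL1 lost it without DPF- replicate 2, HG+ replicate 2 or either HG- array (up to 0.0777), and FMOD without DPF- replicate 2 or any 1 HG array (up to 0.0888). The measured change of SORL1, 1.70, was 3.002 in the 2-source covariate model (0.0315).

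COL1A2, a chain of type I collagen made by fibroblasts, showed the largest fall among all tested probe sets. Its brightest probe set read 5.97, 4.68, 4.50 and 4.08 on the DPF arrays, against 8.93, 8.87, 8.01 and 8.51 on the HG arrays. The sources did not overlap, with a change of -3.77 (SE 0.29, limma adjusted p = 0.00133). The other 2 probe sets changed by -2.65 and by -0.69 or lower, and all 3 were called in every fit without 1 array. COL1A2 was also called in the 2-source covariate model, at -5.06 (limma adjusted p = 0.0123).

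NID1, nidogen, which links laminin and collagen in basement membranes, fell on all 4 of its probe sets. The brightest read 7.03, 6.68, 8.21 and 6.36 on the DPF arrays, against 9.89, 9.62, 9.74 and 9.62 on the HG arrays, a change of -2.65 (SE 0.36, limma adjusted p = 0.00779). The groups did not overlap. On the other 3 probe sets every DPF array was under 4, and the changes were -1.25, -0.21 and -1.54 or lower. Those 3 were called in every fit without 1 array, and the brightest missed the threshold without HG- replicate 2 (0.0512).

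TES, a scaffold protein of focal adhesions, read 5.98, 5.82, 5.80 and 5.04 in DPF and 7.45, 7.52, 7.43 and 7.44 in HG samples, a change of -1.80 (SE 0.19, limma adjusted p = 0.00329). TAF4B, a subunit of the general transcription factor TFIID that is needed for the ovary in mice, read 5.46, 5.55, 5.14 and 4.81 in DPF and 6.29, 6.59, 6.65 and 6.43 in HG samples. Its change was -1.25 (SE 0.16, limma adjusted p = 0.00587). Both genes were lower on every DPF array than on any HG array, on each of their 2 probe sets, as the naming rule required. The brightest probe sets kept their call in every fit without 1 array (up to 0.0338 for TES and 0.0439 for TAF4B), and both were called in the 2-source covariate model, TES at -2.54 (0.0123) and TAF4B at -1.92 (0.0212).

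DMD, dystrophin, which ties the cytoskeleton to the cell's matrix, fell on all 5 probe sets, with a change of -0.98 on the brightest (limma adjusted p = 0.0234) and of -1.39 on a dimmer one. EGR1, a transcription factor induced by gonadotropin and growth factors, read 7.43, 7.29, 7.31 and 6.55 in DPF and 8.76, 8.43, 7.49 and 8.03 in HG samples, a change of -1.03 (SE 0.22, 0.0253). Its second probe set changed by -1.495, and HG- replicate 1 lay just above the highest DPF array on the brightest one. NXN, nucleoredoxin, changed by -1.36 (0.0165), PCSK2, a protease that matures prohormones, by -1.51 (0.0196), and the potassium channel KCNJ5 by -1.33 (0.0138). RAB27A, a GTPase of granule secretion, changed by -0.88 (0.0259). DMD, EGR1 and RAB27A lost the call without DPF- replicate 2 or any 1 HG array (adjusted p up to 0.113, 0.116 and 0.123). NXN lost it without any 1 HG array (up to 0.0867), PCSK2 without either DPF- array, either HG+ array or HG- replicate 2 (up to 0.0821), and KCNJ5 without either HG+ array or HG- replicate 2 (up to 0.079). KCNJ5 changed by -0.19 (0.759) and EGR1 by -1.86 (0.118) in the 2-source covariate model, and KCNJ5 turned to 0.61 with the covariate of the 4 group means.

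**Figure D3:**
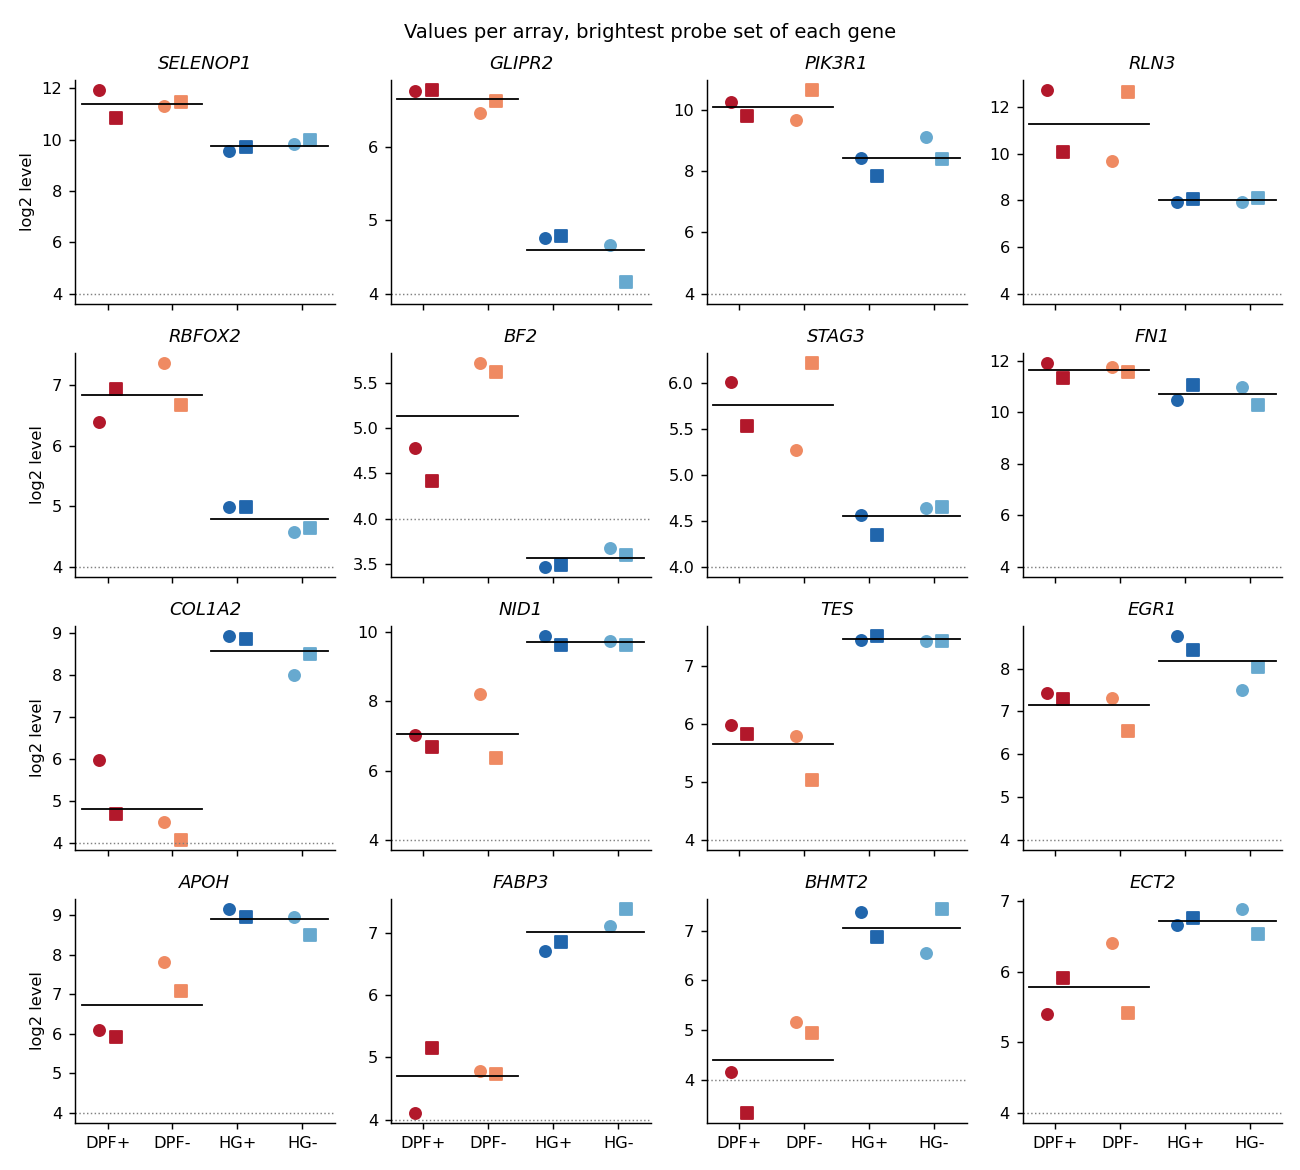
Log2 levels of 16 genes on each array, by the brightest probe set; points are arrays (circles replicate 1, squares replicate 2), black lines the means of the 4 DPF and the 4 HG arrays, and the dotted line the level of 4. The top 2 rows hold genes higher in DPF and the lower 2 rows genes lower in DPF; RLN3 spreads between 9.68 and 12.73 on the DPF arrays, and BF2 lies under 4 on every HG array.

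Among genes with a single probe set, BHMT2, a methyltransferase of sulphur amino acid metabolism, read 4.16, 3.33, 5.17 and 4.94 in DPF and 7.39, 6.87, 6.56 and 7.44 in HG samples, a change of -2.67 (SE 0.27, limma adjusted p = 0.00303). FABP3, a carrier of fatty acids, read 4.11, 5.16, 4.79 and 4.74 in DPF and 6.72, 6.86, 7.11 and 7.39 in HG samples, a change of -2.32 (SE 0.23, 0.00302). APOH, a plasma glycoprotein that binds phospholipids, read 6.10, 5.91, 7.81 and 7.09 in DPF and 9.15, 8.96, 8.95 and 8.50 in HG samples, a change of -2.16 (SE 0.20, 0.00246). None of these overlapped between sources, as the naming rule required. MYO10L, named after an unconventional myosin, changed by -2.44 or lower (0.00121). CSNK1E, a casein kinase of the WNT pathway and the circadian clock, changed by -2.31 (SE 0.24, 0.00303). These 5 genes kept the call in every fit without 1 array (up to 0.0287). CSRP2, a LIM domain protein of muscle and stromal cells, changed by -1.59 (0.0109), and lost the call without HG+ replicate 2 or either HG- array (up to 0.0612). BHMT2 changed by -1.22 (0.265) and APOH by -0.91 (0.417) in the 2-source covariate model, CSNK1E by -4.42 (0.0517) and CSRP2 by -2.89 (0.0123).

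A further 4 genes had probe sets called in opposite directions, so no direction can be given for them as genes. For DIEXF, a nucleolar protein, 1 probe set read 7.21, 7.73, 6.70 and 5.65 in DPF and 3.10, 2.85, 2.98 and 3.05 in HG samples. A different one read 2.80, 3.06, 3.05 and 2.82 in DPF and 5.03, 5.10, 5.36 and 4.98 in HG samples. The changes were 2.82 or more and -1.12 or lower, both called in every fit without 1 array, while the brightest probe set changed by 0.28 (limma adjusted p = 0.442). YAE1D1 changed by 1.51 on its brightest probe set (0.00324, called in every fit without 1 array) and by -0.79 or lower on a dimmer one. GNL3, nucleostemin, changed by 1.28 or more and by -0.60 on its dimmer probe sets, and by -0.07 on the brightest. GALNT18, an enzyme that starts O-linked sugar chains, changed by -0.99 and by 0.65 or more on dimmer probe sets, and by -0.34 on the brightest (0.196). These calls of GNL3 held in 5 and 2 of the 8 fits without 1 array, and each of those of GALNT18 in 3.

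In all, 7 probe sets were clear in 1 source and under 4 on every array of the other, at a minimum of 5.5 that was chosen after the values were seen. Of these, 5 were clear in DPF samples and 2, without a gene name, in HG samples. The DPF set held a probe set of DPF3, a chromatin reader that shares only its letters with the line, at 8.27, 7.32, 6.04 and 8.32 in DPF and 2.57, 2.98, 2.51 and 2.54 in HG samples. It changed by 3.49 or more (limma adjusted p = 0.00287), but the other DPF3 probe set changed by -0.44 (0.193). NUFIP2, an RNA-binding protein, had 1 such probe set at 6.83, 6.69, 5.76 and 5.98 in DPF and 3.04, 3.01, 3.01 and 3.63 in HG samples. The remaining probe sets of NUFIP2 changed by 0.16 (0.488) and -0.29 (0.321). The transporter SLC35F2, with 1 HG array above 4, changed by 3.75 or more on 1 probe set (0.0019), whereas its other probe sets changed by 1.38 (0.0541) and 0.66 (0.193). The 1-source probe sets were picked by the gap between the sources in these same values, and that of SLC35F2 after its values were seen. Their separation and their calls are thus not a further result.

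Gene lists were read by the brightest probe set of each gene. Over all 7042 genes with a name, 224 were called higher (3.18%) and 363 lower (5.15%), together 8.34%, with a median change of -0.055. The shares called of the lists below are to be read beside those.

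Of 16 tested oocyte and germ line genes, 2 were called higher and none lower, with a median of -0.19. STAG3, a cohesin subunit of meiosis, read 6.01, 5.53, 5.27 and 6.22 in DPF and 4.56, 4.35, 4.64 and 4.65 in HG samples. Its change was 1.21 (SE 0.23, limma adjusted p = 0.0195), and its dimmer probe set was not called, at 0.54 (0.0665). GTSF1, a factor of the piRNA pathway, changed by 0.91 (SE 0.13, 0.00862). WEE2, the oocyte kinase that restrains entry into M phase, averaged 4.64 in DPF and 5.84 in HG samples but did not pass (0.124). None of 7 egg coat and gamete membrane genes was called (median -0.15). The egg coat gene ZP3 averaged 13.93 in DPF and 13.97 in HG samples, and the membrane gene CD81 had the smallest p of the list (change 0.44, limma adjusted p = 0.112). STAG3 lost its call without any 1 HG array (up to 0.0936), and GTSF1 without HG+ replicate 2 or either HG- array (up to 0.0662). GTSF1 changed by 0.091 in the 2-source covariate model (0.935).

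Of 19 granulosa markers, GATA4, a transcription factor of granulosa cells, was the only call. It averaged 4.83 ± 0.49 in DPF and 5.46 ± 0.05 in HG samples (SD, n = 4 each), a change of -0.64 (limma adjusted p = 0.0425), and lost the call without either DPF- array or any 1 HG array (up to 0.17). GATA4 changed by 0.25, in the opposite direction, in the 2-source covariate model (0.638). The list had a median of -0.04. Of 17 genes of steroid hormone synthesis, 2 were called lower and none higher (median -0.05). AKR1D1, a reductase that inactivates steroids, changed by -1.34 (SE 0.27, 0.023), and TSPO, a mitochondrial membrane protein linked to cholesterol import, by -0.88 (0.0388). Both lost the call without DPF- replicate 2 or any 1 HG array (up to 0.104 and 0.152). Genes of progesterone synthesis were not called, HSD3B1 changing by -0.04, CYP11A1 by -0.16 and STAR by -1.04 (0.0781).

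Of 14 ovulation signalling genes 3 were called lower and 1 higher (median -0.22). PTGS1, which makes prostaglandin precursors, was under 4 on every DPF array and read 4.40, 4.25, 4.18 and 4.67 in HG samples, a change of -0.38 or lower (limma adjusted p = 0.00332). PLAU, the urokinase protease, averaged 8.56 ± 0.21 in DPF and 9.50 ± 0.34 in HG samples (SD, n = 4 each), a change of -0.94 (0.027). PDE3A, a phosphodiesterase that mammalian oocytes need to leave meiotic arrest, changed by -0.84 or lower (0.0124). PTGS1 thus reached the filter of 4 only on HG arrays, and the DPF mean of PDE3A, 3.645, also lay under 4. The calls of both, also in the fits without 1 array, rest in part on DPF values read as background. The single higher call was RLN3. The receptor of luteinizing hormone, LHCGR, averaged 11.29 in DPF and 11.71 in HG samples (0.214). PTGS1 kept its call in every fit without 1 array (up to 0.0266), PLAU lost it without either DPF- array, HG+ replicate 1 or either HG- array (up to 0.127), and PDE3A without DPF- replicate 2, HG+ replicate 2 or either HG- array (up to 0.0722). The measured change of PDE3A, -1.19, was -0.79 in the 2-source covariate model (0.299).

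The theca, stroma and matrix list had only 5 tested genes of 22 on the array. COL1A2 and MYLK, the kinase of smooth muscle contraction, were called lower, and FN1, fibronectin, higher (median 0.28). FN1 read 11.91, 11.34, 11.74 and 11.55 in DPF and 10.48, 11.04, 10.98 and 10.29 in HG samples, a change of 0.94 (SE 0.22, limma adjusted p = 0.0328). Its other probe sets changed by 1.18, 1.16 and 0.73, the second of them called. MYLK changed by -1.21 (0.0262). Both lost the call without either DPF- array or any 1 HG array (up to 0.134 for FN1 and 0.116 for MYLK), and MYLK was at 0.025 with the covariate of the 4 group means. Of 7 basement membrane genes NID1 was the only call (median -0.24), LAMC1 changing by -0.10 and COL4A5 by 0.34. COL1A2 and NID1 fell while FN1 rose, and SPARC, a matrix protein at 12.53 in DPF and 12.25 in HG samples, was not called (0.24).

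Defining markers of blood cells and vessels were mostly not above background. Leukocyte genes had 2 tested of 23 on the array, neither called. CD74, the invariant chain of MHC class II, averaged 8.16 in DPF and 8.92 in HG samples (limma adjusted p = 0.11), while a dimmer probe set of it changed by -1.52 (0.0124). Endothelial genes had 3 tested of 12, with CDH5, the cadherin of endothelium, under 4 on every DPF array and at 4.42, 3.49, 3.92 and 4.29 in HG samples (-0.03 or lower, 0.011; 0.0666 without HG- replicate 2). The other endothelial genes tested were not called, CLDN5 changing by 0.05 (limma adjusted p = 0.938) and EGFL7 by -0.37 (0.119). Set against each gene's mean over the 8 arrays, the median endothelial gene was at -0.24, -0.57, -0.34 and -0.20 in DPF samples. In HG samples it was at 0.17, 0.08, 0.22 and 0.32. The median leukocyte gene was at -0.07, -0.27, -0.32 and -0.25 in DPF and at 0.32, 0.15, 0.17 and 0.28 in HG samples. These medians rest on 3 and 2 genes and do not describe a cell type. The part of such cells in the other results was not tested. Of 10 genes matched to the red blood cell list, the only one tested was ALAS1, reached as a synonym of ALAS2. No red blood cell gene was thus tested under its own listed name. Of 4 tested liver and yolk proteins APOH was the only call, ALB changing by 0.58 (0.636), and neither of 2 oviduct genes was called (TFPI2 0.27, 0.222).

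Genes of the chicken major histocompatibility complex gave 2 higher and 1 lower call of 11 (median 0.25). BF2, a class I molecule that presents peptides, read 4.78, 4.42, 5.72 and 5.62 in DPF and 3.47, 3.49, 3.68 and 3.60 in HG samples. Every HG array was under 4, and the change was 1.14 or more (SE 0.14, limma adjusted p = 0.00238; up to 0.0262 without 1 array). BG8, a butyrophilin-like molecule of the same locus, read 5.23, 5.09, 6.69 and 6.58 in DPF and 5.20, 5.11, 5.48 and 5.24 in HG samples. Only the DPF- arrays of BG8 stood above the HG arrays, for a change of 0.64 (0.0274). TRIM41, a ubiquitin ligase, changed by -0.14 or lower (0.0426). BG8 lost the call without either DPF- array or any 1 HG array (up to 0.14), and TRIM41 without DPF+ replicate 1 as well (up to 0.165). In the 2-source covariate model the measured change of BF2, 1.57, was 2.76 (0.0139), and that of BG8 was 2.25 (0.0392).

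Of 9 interferon response genes, 1 was called higher and 1 lower (median 0.27). LY6E, a small membrane protein induced by interferon, read 3.76, 3.34, 6.65 and 5.17 in DPF and 3.71, 3.33, 3.29 and 3.08 in HG samples. Its DPF+ arrays lay among the HG arrays or close to them, and the change was 0.73 or more (limma adjusted p = 0.0315). PARP12, an antiviral ADP-ribosyltransferase, changed by -0.86 (0.026) with both probe sets lower. LY6E lost the call without any 1 HG array (up to 0.132), and PARP12 also without DPF- replicate 2 (up to 0.124). The measured change of LY6E, 1.38, was 3.44 in the 2-source covariate model (0.133) and -1.78 with the covariate of the 4 group means.

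TGF-beta and BMP signalling had 2 higher and 1 lower call of 27 (median 0.10). ID1 and ID2 are transcription regulators switched on by BMP signals. ID1 read 10.35, 10.44, 10.26 and 10.34 in DPF and 9.95, 9.14, 9.71 and 9.66 in HG samples, a change of 0.73 (SE 0.18, limma adjusted p = 0.0408). ID2 changed by 0.59 (0.0424) on its brightest probe set, the others not called, and VWC2, a secreted BMP antagonist, by -1.44 (0.0199). VWC2 read 5.12, 4.22, 6.80 and 7.31 in DPF and 7.31, 6.92, 7.06 and 7.90 in HG samples, so it was lowest on the DPF+ arrays. Of 17 WNT genes, CSNK1E and AXIN2, a brake on beta-catenin, were called lower (median -0.065; AXIN2 -0.64, 0.0313). Of 13 circadian clock genes CSNK1E was called lower and its relative CSNK1D higher (0.60, 0.0376), with a median of 0.12. ID1, ID2, AXIN2 and CSNK1D lost the call without either DPF- array, HG+ replicate 2 or either HG- array (up to 0.174), and ID2, AXIN2 and CSNK1D also without HG+ replicate 1. VWC2 lost it without either DPF- array, either HG+ array or HG- replicate 2 (up to 0.0895). VWC2 turned to 0.67 with the covariate of the 4 group means and to 1.51 in the 2-source covariate model (0.143), where ID2 changed by 0.92 (0.175) and AXIN2 by -0.37 (0.457).

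Cell division genes were lower in median in DPF samples and spread widely among the DPF arrays. Of 37 M phase genes 1 was called lower (median -0.36), and of 40 DNA replication genes 5 were called lower (12.5% of the list, median -0.34). ECT2, which acts in cytokinesis, read 5.40, 5.91, 6.41 and 5.41 in DPF and 6.67, 6.77, 6.89 and 6.54 in HG samples, a change of -0.94 (SE 0.25, limma adjusted p = 0.048). Of the DNA replication genes, MCM10, which starts replication forks, changed by -1.11 or lower (0.0209), RFC1, of the clamp loader, by -0.88 (0.0312), POLA1, the primase polymerase, by -0.85 (0.0204), and RRM1, of ribonucleotide reductase, by -0.76 (0.0398). Set against each gene's mean over the 8 arrays, the median M phase gene was at -0.61, 0.50, 0.11 and -0.54 on the DPF arrays, and at -0.03, 0.33, 0.22 and 0.08 on the HG arrays. The oocyte and germ line genes ran alike, at -0.44, 0.36, 0.12 and -0.63 in DPF and 0.12, 0.21, 0.21 and -0.05 in HG samples. Granulosa markers ran the other way on the DPF arrays, at 0.04, -0.47, -0.10 and 0.18, against 0.08, -0.03, 0.01 and 0.13 on the HG arrays. The M phase median became -0.63 without DPF+ replicate 2 and -0.035 without DPF+ replicate 1, and the DNA replication median -0.57 and -0.13. ECT2 lost its call without DPF+ replicate 1, DPF- replicate 2 or any 1 HG array (up to 0.17), and MCM10 without DPF- replicate 2 or any 1 HG array (up to 0.0938). RFC1, RRM1 and POLA1 lost theirs without either DPF- array, HG+ replicate 2 or either HG- array, RFC1 and RRM1 also without HG+ replicate 1 (up to 0.172). POLA1 changed by -0.39 (0.476) in the 2-source covariate model, RFC1 by -1.57 (0.0861) and RRM1 by -1.27 (0.112).

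**Figure D4:**
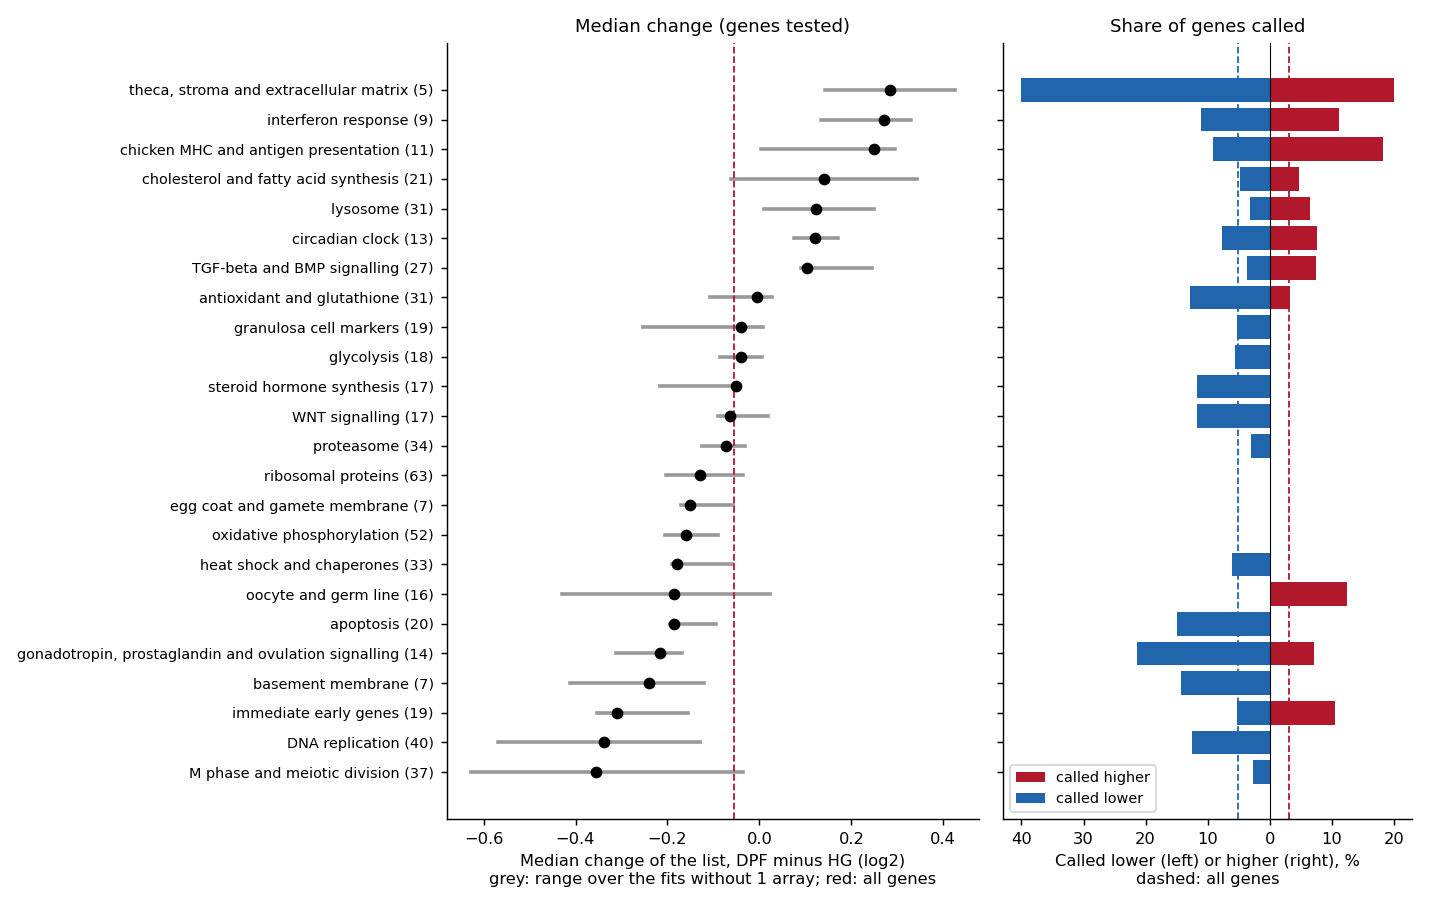
Left, the median change (DPF minus HG, log2) of each gene list with 5 or more tested genes, the number tested in brackets, with grey lines for the range over the 8 fits without 1 array and a red dashed line for all genes (-0.055). Right, the percent of each list called lower (blue, to the left) or higher (red, to the right), with dashed lines for all genes (5.15% and 3.18%); M phase and DNA replication genes have the lowest medians, and M phase, oocyte and DNA replication genes have long grey lines.

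Cell survival and stress genes gave lower calls only in part of each list. Of 20 apoptosis genes 3 were called lower (median -0.19). FAS, a death receptor, changed by -0.98 (limma adjusted p = 0.0196), the mitochondrial nuclease ENDOG by -1.25 (0.0283), and BIRC8, listed as XIAP, an inhibitor of caspases, by -0.77 (0.0375). Of 33 heat shock genes 2 were called lower (median -0.18), HSPB8 by -0.66 or lower (0.0359) and HSPA4 by -0.56 (0.0312). Of 31 antioxidant genes 4 were lower and SELENOP1 higher (median -0.005). NQO1, a quinone reductase, changed by -0.77 (0.0272), GPX8, a peroxidase of the endoplasmic reticulum, by -0.68 or lower (0.0132), and PRDX6 by -0.62 (0.0343). Each of these 8 genes lost the call without HG+ replicate 2 or HG- replicate 2, and each but GPX8 without DPF- replicate 2 (adjusted p up to 0.164). All but ENDOG and GPX8 also lost it without DPF- replicate 1, all 8 without HG+ replicate 1, and all but FAS and HSPB8 without HG- replicate 1. NQO1 changed by 0.027 (0.965) in the 2-source covariate model, PRDX6 by -0.15 (0.744) and ENDOG by -2.13 (0.0848). With the covariate of the 4 group means NQO1 was at 0.18.

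Of 31 lysosome genes 2 were higher and 1 lower (median 0.12). GUSB, which cleaves glucuronides, changed by 1.05 on its brightest probe set (limma adjusted p = 0.0172) but was called lower on a dimmer one, CTSB, cathepsin B, changed by 0.43 (0.0468), and LAMP2, of the lysosomal membrane, by -0.89 (0.00972). Of 21 genes of cholesterol and fatty acid synthesis, ACACA, which commits carbon to fatty acids, was higher (0.98, 0.0161) and PMVK, of the mevalonate pathway, lower (-0.70, 0.0489), with a median of 0.14. Of 19 immediate early genes EGR1 was lower, and MYCN (1.17, 0.0388) and ZFP36L2, which destabilizes mRNA (0.80, 0.0137), were higher (median -0.31). Genes of protein and energy supply changed little in size: none of 63 ribosomal protein genes (median -0.13) or 52 genes of oxidative phosphorylation (-0.16) was called. Most of these changes were negative, in 50 of the 63 (79.4%) and 44 of the 52 (84.6%), against 56.1% of all genes. Whether genes of a list vary independently was not tested. Against each gene's mean over all arrays, the median ribosomal gene was at -0.062, -0.161, -0.172 and 0.175 in DPF samples. In HG samples it was at 0.076, -0.019, 0.085 and 0.121. The median oxidative phosphorylation gene was at -0.07, -0.126, -0.121 and 0.051 in DPF and 0.041, 0.013, 0.126 and 0.105 in HG samples. DPF- replicate 2 thus did not share the fall. Without 1 array the ribosomal median ranged from -0.203 to -0.035. RPSAP58, listed as RPSA, changed by -0.46 (0.0716), with 1 dimmer probe set called at -0.69 (0.0244), and NDUFS8, of complex I, by -0.40 (0.0804). The proteasome chaperone PSMG1 changed by -0.82 (0.0292), 1 call of 34 (median -0.072), and PGK2, listed as PGK1, of glycolysis, by -0.69 (0.0269), 1 call of 18 (median -0.041). Each called gene of this paragraph lost the call without HG+ replicate 2 or HG- replicate 2 (adjusted p up to 0.212 for CTSB), each but LAMP2 without DPF- replicate 2, and each without HG+ replicate 1. PMVK, CTSB, PSMG1 and PGK2 also lost it without DPF- replicate 1, and all but LAMP2 and ACACA without HG- replicate 1. In the 2-source covariate model CTSB turned to -0.37 (0.304; -0.019 with the covariate of the 4 group means), ACACA changed by 0.039 (0.969) and PGK2 by -0.29 (0.535). There PMVK changed by -1.09 (0.206), PSMG1 by -1.37 (0.0973), MYCN by 2.30 (0.0932) and ZFP36L2 by 1.452 (0.0406).

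The source difference was then taken at each fertility level, with comparisons that share no array but share the estimate of spread. Between DPF+ and HG+, 464 probe sets were called (3.65%; 120 higher, 0.943%, and 344 lower, 2.7%), and between DPF- and HG-, 86 (0.676%; 31 higher, 0.244%, and 55 lower, 0.432%). Both calls held for 64 probe sets, with the same sign in all 64, which is 13.8% of the 464 and 74.4% of the 86. The groups varied unequally, with array weights of 0.256 for DPF+, 0.824 for DPF-, 2.29 for HG+ and 2.07 for HG- arrays. With these weights in limma, 11 probe sets were called between DPF+ and HG+ and 774 between DPF- and HG-. Which level has more calls, and these shares, thus depend on the shared estimate of spread. Of all tested probe sets, 76% had the same sign at both levels. The difference between the 2 source contrasts was itself tested, and limma called no probe set (0%, smallest adjusted p 0.893). At an unadjusted limma p under 0.05 there were 364, fewer than the 636.25 expected if no probe set differed. This test rests on the same shared estimate of spread, and the 364 too moved when a DPF+ array was left out. The test thus does not show that the source difference was equal at both levels. The counts moved with single arrays: without DPF+ replicate 1 or 2, 1381 and 2838 were called between DPF+ and HG+, none without HG+ replicate 1 or 2, and 32 without either HG- array. Between DPF- and HG- 1033 and 1031 were called without DPF+ replicate 1 or 2, 35 and 0 without DPF- replicate 1 or 2, 28 and 22 without HG+ replicate 1 or 2, and 0 and 2 without HG- replicate 1 or 2.

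RFX3, which switches on genes of cilia, was among the genes with the smallest unadjusted p of the difference between contrasts. It read 4.65, 5.04, 6.75 and 7.45 in DPF and 6.01, 6.08, 5.56 and 5.82 in HG samples, so that DPF+ lay 1.20 under HG+ and DPF- lay 1.41 over HG- (limma adjusted p = 0.893). The guidance protein SEMA5A differed in the same way on 1 of its dimmer probe sets (-1.45 and 0.47, 0.893). MME, a membrane peptidase, changed by 0.20 between DPF+ and HG+ and by -1.31 between DPF- and HG- (limma adjusted p of the difference 0.999). CSNK1E changed by -0.85 and, as measured without the floor of 4, by -3.78 (0.988). Its DPF- mean was 3.37, a level read as background. Over both levels MME changed by -0.55 (0.0451; up to 0.212 without either DPF- array or any 1 HG array), and by -2.11 in the 2-source covariate model (0.0356). None of the 4 passed the test of the difference, so no difference between the fertility levels was shown for them.

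**Figure D5:**
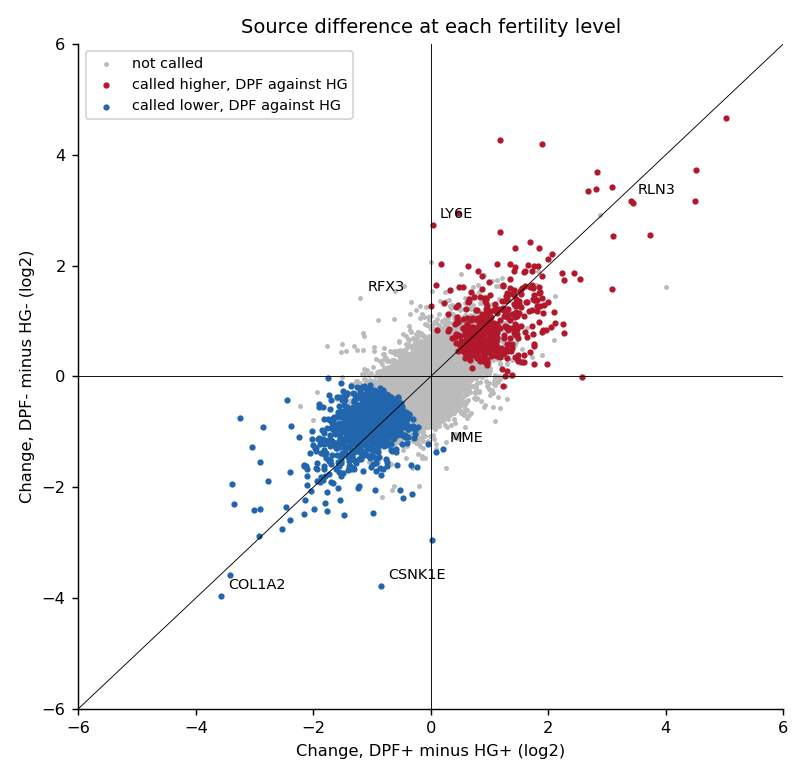
Change between DPF- and HG- (vertical, log2) against change between DPF+ and HG+ (horizontal, log2) for the 12725 tested probe sets, with the line of equal change. Probe sets called over both levels are red (higher) or blue (lower); COL1A2 and RLN3 lie near the line, and RFX3, MME and CSNK1E off it, although the difference passed limma's 5% for none.

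By the RefSeq gene order, the next tested gene on the chromosome was called higher for 1.79% of the higher genes, against 3.2% of all placed genes, and lower for 5.85% of the lower genes, against 5.16%. There were 3 runs of 3 genes called the same way, all lower: PARP12, TRIM24 and AKR1D1, then PRKCA, APOH and AXIN2, then NVL, DEGS1 and TP53BP2. In the first run TRIM24, a chromatin-binding coregulator, changed by -0.84 (limma adjusted p = 0.0126). In the third, DEGS1, a desaturase of ceramide synthesis, changed by -1.25 (0.0187) and TP53BP2, a partner of p53, by -1.20 (0.0166). The calls of TRIM24 and TP53BP2 held in 3 of the 8 fits without 1 array, and that of DEGS1 in 2.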

How the data were processed

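Expression was measured in 8 samples, 2 for each of DPF+, DPF-, HG+ and HG-. The authors deposited log2 levels per probe set, made with GCRMA per the submitters' processing notes; no source used here says if the arrays were normalized as 1 set. Of 38535 probe sets, 96 AFFX controls and 8 with blanks (6 on the DPF arrays, 2 on the HG arrays) were left out, and 12725 reached 4 on at least 2 arrays. The 4 group means were fitted with limma 3.58.1 in R 4.3.3 (eBayes with trend, two-sided, 4 residual and 3.68 prior degrees of freedom), with Benjamini-Hochberg adjustment over all tested probe sets. The number of arrays limits the precision. Gene names came from the platform annotation, updated by gene identifier; 10602 tested probe sets had 1 gene, 57 several and 2066 none. Named genes were chosen by rule. Among genes with every probe set called and not overlapping, 10 each way were taken, ranked by the smallest floored change of any of their probe sets. Of genes with 1 probe set, called and not overlapping, 6 each way were taken. Up to 4 called members of each list (or the smallest p), 4 genes with opposite calls and 4 for the difference of contrasts were added. Others were chosen after their values were seen. ALAS1, reached as a synonym of ALAS2, stayed in the counts of genes and lists, but its change was left out. Members and lists were chosen with earlier results of these data known. Alternatives covered filters, normalization, moderation, weights, covariates, the replicate block and leaving out each array. The fit was tested on simulated data with 200 changed probe sets. It recovered 27.5% of them at a log2 change of 1 and 97.5% at a change of 2. A gene not called can thus still have changed.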

Additional observations from a re-analysis of the deposited data

Results flagged for a closer look

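In 13 of 180 groups of 4 arrays examined, 1 array lay far from the other 3; chance gives such a gap in about 1 of 20 groups. Among the DPF arrays, DPF- replicate 2 was high for KLHL32 (6.51, the others 5.02 to 5.03) and low for EGR1 (6.55). DPF+ replicate 1 was high for PCSK2 (5.34) and low for NDUFS8 (8.36). DPF- replicate 1 was high for RAB27A (7.32), and DPF+ replicate 2 for TRIM41 (3.47). Among the HG arrays, HG- replicate 1 was high for KLHL32 (4.91), ACACA (5.05) and MYCN (5.01). HG- replicate 2 was high for KCNJ5 (6.01) and low for CTSB (11.35), and HG+ replicate 1 was low for AKR1D1 (8.05) and MME (5.80).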

How the results depend on the processing

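Against 1588 probe sets called between the sources, 549 were called with a filter at 6, 1045 with no filter, 870 with the replicate block, 0 with the 3′ minus 5′ difference as a covariate and 105 with it in the 2-group model (added after seeing the data); without 1 array the range was 174 to 4846. Against 464 between DPF+ and HG+, the counts were 119 (filter at 6), 200 (no filter), 11 (array weights), 32 (replicate block) and 0 (3′ minus 5′ covariate), and 0 to 2838 without 1 array. Against 86 between DPF- and HG-, they were 35 (filter at 6), 774 (array weights), 11 (RNA amount), 30 (replicate block) and 0 (3′ minus 5′ covariate), and 0 to 1033 without 1 array. The difference of contrasts gave 1 call with no filter and 0 otherwise. Negative list medians numbered 21 of 29, 13 with no filter and 19 to 21 without 1 array. The median over all genes was itself negative, at -0.055, and was 0.012 with no filter. The red blood cell list, whose only tested gene was ALAS1, is among the 21. The 3′ minus 5′ difference between sources ranged from 0.449 to 0.623 without 1 array, with exact p over 0.05 when an HG array was left out. In these fits the lone array of a group is assumed to vary like the others. Same-numbered deviations correlated between -0.521 and 0.507, which does not settle whether the numbers pair any of the arrays. The replicate block ended the call of 30 of 78 named genes, but it also uses up a degree of freedom. With the 3′ minus 5′ covariate of the 4 group means the sign turned for KCNJ5 (0.61), DIEXF (-1.59), MYLK (0.025), CD74 (1.92), LY6E (-1.78), VWC2 (0.67), NQO1 (0.18) and CTSB (-0.019). In the 2-group model with it, the sign turned for DIEXF (-0.66), CD81 (-0.14), GATA4 (0.25), VWC2 (1.51), NQO1 (0.027) and CTSB (-0.37). With each array left out in turn, the change of RFX3 (0.105) ranged from -0.07 to 0.28. The cause was not tested. No depth is known for arrays; levels near 4 limit what a fall can show.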

Other observations

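The mean level of the poly-A spike transcripts (dap, lys, phe and thr together) was 5.78, 5.02, 6.64 and 4.93 on the DPF arrays, and 5.08, 5.28, 5.16 and 5.09 on the HG arrays, so DPF- replicate 1 read highest. The hybridization spikes ran from 9.25 to 10.10 on the DPF arrays and from 8.92 to 9.72 on the HG arrays.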
